A study of Mus musculus with 46 samples.

Results

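When mouse embryonic fibroblasts (MEFs) are turned into induced pluripotent stem cells (iPSCs), some genes carry the histone variant H3.3 at the start and are then without it from day 6 to the end. This report describes 211 such genes, of 22238 protein-coding genes. They were chosen by their H3.3 peaks alone, that is selected on the readout itself. A gene counted as bound when the midpoint of an H3.3 peak lay on it or within 1 kb of either end. Members were bound in D0 and D3 and not bound in D6T-, D9T-, D12S+, D16S+ and iPSCs. Their presence in the first 2 libraries and absence from the last 5 is therefore a description and no finding. Of all protein-coding genes 59.1% (D0), 55.3% (D3), 57.4% (D6T-), 55.5% (D9T-), 48.2% (D12S+), 41.7% (D16S+) and 59.2% (iPSCs) were bound. Of the 11146 genes bound in D0 and D3, 1.89% were members, while 6263 were bound in all 7 libraries.

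The starting MEFs, which per the study's methods carried an Oct4 reporter, were infected with pMXs retroviruses carrying Oct4, Sox2, Klf4 and c-Myc. H3.3 was profiled by ChIP-Seq, which sequences DNA pulled down with an antibody, at day 0 and day 3 (D0, D3), in cells sorted on Thy-1 at day 6 and day 9 (D6T-, D9T- without it, D6T+, D9T+ with it), in cells sorted on SSEA-1 at day 12 and day 16 (D12S+, D16S+ with it, D12S-, D16S- without it), in iPSCs and in the mouse embryonic stem cell line ESD3. H3K4me3 and H3K36me3 were profiled in the 7 libraries from D0 through the T- and S+ fractions to iPSCs, and not in the other fractions. A second experiment held H3.3 libraries of MEFs, of the same kind of cells on day 4 after SLBR induction (D4) and of fully transdifferentiated cells sorted as cKit+ or cKit-. Thy-1 is a surface protein of fibroblasts and SSEA-1 a surface sugar of pluripotent cells, and the T+ and S- cells are the fractions the study calls unsuccessful. Each group was 1 library, so nothing was tested across libraries. Intervals given for shares are exact 95% binomial intervals, and they cover counting error only.

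H3.3 is a histone H3 that cells put into chromatin outside of DNA replication, mostly at active genes and regulatory elements. H3K4me3 marks the start sites of genes that are active or poised, and H3K36me3 is laid down along the body of genes as they are transcribed. A fibroblast that becomes an iPSC gives up a mesenchymal program, made of collagens, matrix enzymes, contractile proteins and secreted growth factors, and its surface Thy-1 is among the first to go.

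The libraries were not equally deep. The H3.3 libraries of reprogramming held 18.7 M (D16S+) to 41.2 M (iPSCs) tags, M standing for mega, and 34062 (D16S+) to 89727 (D0) peaks. All 10 fibroblast markers had an H3.3 peak in D0 and in the MEF library. In iPSCs 3 of them did, while all 8 pluripotency markers were bound. Of the 8 pluripotency markers 2 were bound in D0. Of 6 hematopoietic and macrophage markers 2 were bound in D0, with a summed score of 127, against 5376 for the fibroblast markers. A missing peak says only that none was called at that library's depth and enrichment, and in these bulk fractions fewer cells that carry H3.3 cannot be told apart from less H3.3 per cell.

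Members carried little H3.3 from the start. The summed score of a gene is the sum of its peaks' normalized tag counts, in tags per 10 M. Its median over the members was 20.2 in D0 (quartiles 8.90 and 42.6, highest 401), against 65.5 over all genes bound in D0 and D3. In D3 the medians were 8.90 and 41.8. In D0, 58.8% of the members had just 1 peak, against 22.3% of the genes bound in D0 and D3, and in D3 70.6% against 24.7%. The enrichment of the peaks themselves was alike, with a median fold over input of 4.20 for the members' 484 D0 peak assignments and 4.17 for those of all genes bound in D0 and D3. Members were also shorter, with a median length of 18.6 kb against 27.9 kb. The part of the low scores, few peaks and short length in the membership was not tested. The D0 peaks lay in introns in 72.3% of cases, at promoters (1000 bp before to 100 bp past a start site) in 12.4%, in exons in 8.88% and in the 1 kb flanks in the remaining 31 of 484. For all genes bound in D0 and D3 the same shares were 77.8%, 9.25%, 9.87% and 3.08%.

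Being bound in D0 and in D3 did not always mean being bound at the same place. In 139 of the 211 members (65.9%, interval 59.1% to 72.2%) a D0 peak and a D3 peak overlapped, against 84.8% of all genes bound in both. Of the members, 23 had no D0 peak that lay outside every other protein-coding gene's window, and 1 pair, Sla and Tg, shared a peak. The members sat on every autosome, from 5 each on chromosomes 17 and 18 to 22 on chromosome 2, and 2 were on X.

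At the edge of the rule, the members with the weakest signal had D3 scores of 5.42 (Gm14446), 5.61 (8430423G03Rik and C1qtnf2) and 5.81 (1700017D01Rik and 1700048O20Rik). Just outside it were genes with a single weak peak in iPSCs, namely Lamc3 (iPSC score 4.86), Fxyd5 (4.98), Mogat2 (4.98), Ndufa9 (5.10) and Heyl (5.22). All of these values lay close to the lowest score of a peak in their library, 5.03 in D3 and 4.37 in iPSCs. A total of 372 genes bound in D0 and D3 missed membership by 1 later library, of which 147 were bound only in D6T- and 137 only in iPSCs. A later peak reached into the window of 23 members with its midpoint outside, and into the gene itself in 7. Col6a1 was 1 of these 7, since a D6T- peak of 5725 bp with a score of 85.5 began upstream and covered the first 224 bp of the gene. In Lilrb3 a D6T- peak with a score of 203 covered the last 795 bp. D9T- peaks also reached into both genes, by 300 bp in Col6a1 (score 40.5) and by 754 bp in Lilrb3 (score 177). A later peak midpoint lay between 1 and 5 kb outside 67 members (31.8%).

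The membership rests on how many peaks each list holds. With the 34062 top-scoring peaks of every reprogramming library, 193 genes met the rule, and 32 of the 211 members were among them. These 32 include Adamts12, Adamts5, Col27a1, Col6a1, Igf1, Pgf, Plxna4, Rasgrf2, Vdr, Mr1, Ifi47 and Socs1. Of the 9 planned settings, those that leave D9T-, D16S+ or D3 out of the rule keep all 211 members by construction. Only the others could remove a member. Under all 9, equal peak numbers among them, 12 members met the rule, namely Adamts5, Adamtsl2, Cd96, Col27a1, Dntt, Gm9991, Ifi47, Igf1, Mr1, Pgf, Plxna4 and 5430419D17Rik. Those outside the naming rule given under the processing were named after their values were seen.

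The words of AP-1, dimers of Fos and Jun proteins that bind many enhancers of fibroblasts, were looked for in 500 bp centered on each D0 peak. The heptamer TGACTCA or its reverse complement TGAGTCA was present in 81 of 480 member peaks (16.9%, interval 13.6% to 20.5%) and in 12.6% of all 62194 genic D0 peaks (12.3% to 12.8%). Outside exons and more than 1 kb from a start site it was in 19.8% of member peaks (15.7% to 24.3%) against 13.6%. With only the strongest peak of each gene the shares were 19.5% (14.4% to 25.5%) and 15.7%. The difference of a few percentage points thus stood outside the counting interval in the first 2 comparisons and inside it in the last. In the first 2, several peaks can come from 1 gene, as the 20 D0 peaks of Col27a1 do. Such peaks are not independent, so those intervals may be too narrow. Of the members' genes 31.3% had such a peak, against 39.5% of all genes bound in D0 and D3, which have more peaks each. A RUNX word (TGTGGTT or AACCACA) was in 12.5% of member peaks and 12.6% of all genic D0 peaks, a TEAD word (ACATTCC or GGAATGT) in 8.96% and 7.20%, and the octamer of pluripotency factors (ATTTGCAT or ATGCAAAT) in 1.25% (0.460% to 2.70%) and 2.46%. The search covered both strands, words of different factors were counted independently of any overlap, and a match is a description of the letters and not of a bound site.

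The windows below, read from the mm9 genome, show 60 bases on either side of the AP-1 heptamer in D0 peaks of Thy1, Igf1, Vdr and Col27a1, 4 of the members whose values follow, namely a surface protein, a growth factor, a hormone receptor and a collagen. The heptamer is in capitals and all windows are given on the plus strand, 5' to 3'.
Thy1 (chr9:43856855-43856981): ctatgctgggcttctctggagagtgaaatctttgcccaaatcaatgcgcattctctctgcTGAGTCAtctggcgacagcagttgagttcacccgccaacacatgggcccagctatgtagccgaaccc
Igf1 (chr10:87342853-87342979): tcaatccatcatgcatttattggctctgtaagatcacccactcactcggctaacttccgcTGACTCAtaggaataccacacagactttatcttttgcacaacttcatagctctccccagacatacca
Vdr (chr15:97737734-97737860): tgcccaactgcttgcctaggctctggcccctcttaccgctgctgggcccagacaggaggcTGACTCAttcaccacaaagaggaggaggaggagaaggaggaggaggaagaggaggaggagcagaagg
Col27a1 (chr4:62877856-62877982): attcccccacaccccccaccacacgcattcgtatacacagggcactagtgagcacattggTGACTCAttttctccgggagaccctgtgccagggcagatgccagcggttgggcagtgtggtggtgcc
The Thy1 heptamer lies 5.45 kb from the start site, past the end of the gene, in a D0 peak with a score of 83.5, and peaks of D6T+, D9T+, MEF and D4 also covered it. The Igf1 heptamer lies in an intron 18.8 kb from the nearest annotated start site, in a D0 peak with a score of 56.2, and was also covered in D3 and D4. The Vdr heptamer, in an intron 0.944 kb from a start site, was covered in D0 (peak score 16.1), D3, D12S- and D4. The Col27a1 heptamer, in an intron 1.45 kb from a start site, was covered in D0 (peak score 19.7), D3, MEF and D4.

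Among the members was Thy1, which encodes the surface protein used to sort the cells. Its summed H3.3 score was 101 in D0, 13.7 in D3, 33.1 in D6T+, 38.3 in D9T+, 84.4 in MEF and 205 in D4, with no peak in D6T-, D9T-, D12S+, D16S+, iPSCs, ESD3, D12S-, D16S-, cKit+ and cKit-. So H3.3 was called on Thy1 in both T+ fractions and in neither T- fraction. These fractions were defined by the Thy-1 protein, so the gene gives no independent comparison of them. Among 34 genes of a fibroblast and mesenchymal list that were bound in D0 and D3, 3 were members, 8.82% against 1.89% of all such genes. Fap, a serine protease of activated fibroblasts, was also a member from that list. Fap scored 32.8 in D0, 6.39 in D3, 23.5 in MEF, 41.9 in D4 and 5.53 in cKit-, and no unsuccessful fraction had a peak. Of the same list 8 genes were bound in all 7 libraries (23.5%, against 56.2% of all genes bound in D0 and D3).

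**Figure D1:**
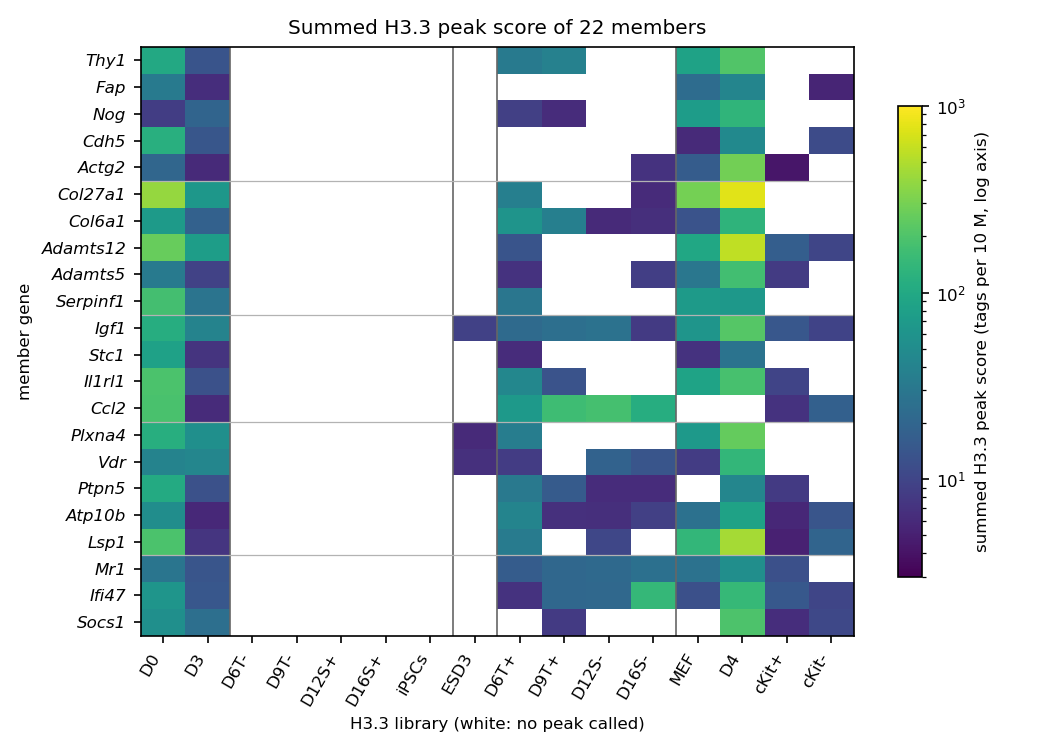
Summed H3.3 peak score (color, tags per 10 M, log scale) of 22 members, in rows, in each of the 16 H3.3 libraries, in columns, 1 library each; white means no peak called, and vertical lines part the 2 libraries that had to be bound, the 5 that had to be free, ESD3, the 4 unsuccessful fractions and the 4 transdifferentiation libraries. The white block under D6T- to iPSCs is set by the rule; in D4 all of the genes shown but Ccl2 have a peak, with the highest at 764 for Col27a1, while ESD3 has peaks on Igf1, Plxna4 and Vdr.

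Of 93 genes of a matrix and matrix remodelling list bound in D0 and D3, 5 were members (5.38%) and 36 were bound in all 7 libraries (38.7%). Col27a1, a fibrillar collagen chain, had the highest D0 score of all members. It scored 401 in D0 over peaks spread along its 121 kb, 65.2 in D3, 37.2 in D6T+, 6.10 in D16S-, 295 in MEF and 764 in D4. Adamts12, a secreted metalloprotease of 282 kb, scored 262 in D0, 76.3 in D3, 13.7 in D6T+, 95 in MEF, 574 in D4, 17.0 in cKit+ and 10.2 in cKit-. Adamts5, an aggrecan-cleaving enzyme of the same family, scored 32.7 in D0, 9.48 in D3, 6.98 in D6T+, 8.78 in D16S-, 29.8 in MEF, 171 in D4 and 8.23 in cKit+. Serpinf1, the secreted factor PEDF, scored 175 in D0, 27.9 in D3, 29.6 in D6T+, 70.5 in MEF and 67.0 in D4. In all 4 the D0 score was the highest of the reprogramming libraries, and the MEF and D4 libraries also had peaks.

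Col6a1, a chain of collagen VI, scored 71.8 in D0, 18.2 in D3, 60.8 (D6T+), 36.7 (D9T+), 6.04 (D12S-), 6.59 (D16S-), 13.3 in MEF and 132 in D4. It was thus bound in all 4 unsuccessful fractions, with D6T+ near D0 and the S- fractions near the lowest score a peak can have. Its D0 and D9T+ peaks reached over its start and its D3 and D6T+ peaks ended just upstream, within the stretch that the large D6T- peak described above also covered. A D9T- peak with its midpoint outside the window also reached 300 bp into the gene. The D12S- and D16S- peaks lay elsewhere, more than 13 kb into the gene.

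**Figure D2:**
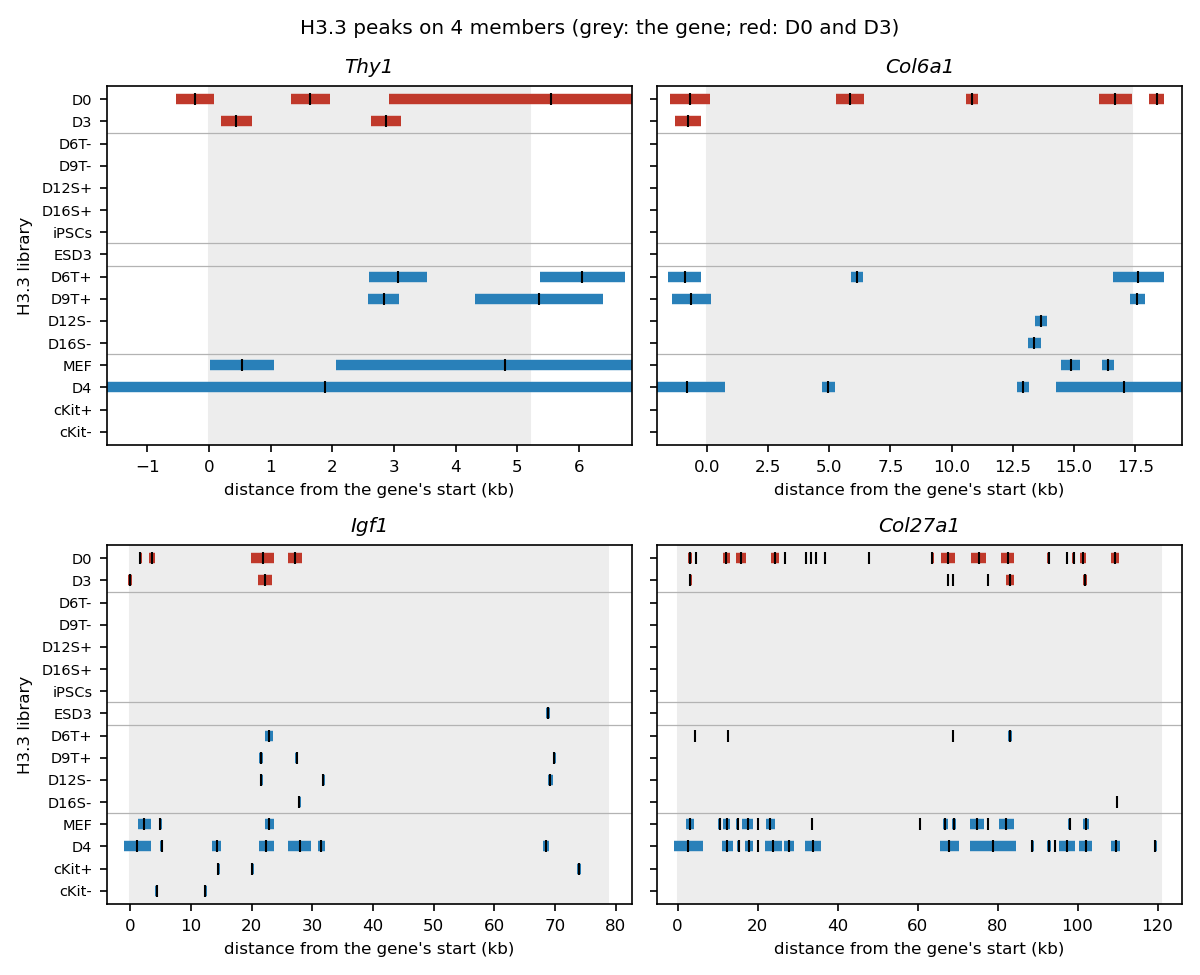
H3.3 peaks with a midpoint on 4 members or within 1 kb of them, by distance from the gene's start in kb (horizontal axis) and by library (rows, 1 library each); grey marks the gene, red the peaks of D0 and D3, blue those of the other libraries, and ticks the midpoints, by which peaks were given to genes. The rows D6T- to iPSCs are empty by the rule, though a D6T- peak reaches 224 bp into Col6a1 from upstream and a D9T- peak reaches 300 bp into it. D6T+ and D9T+ peaks overlap D0 peaks on Thy1 and Col6a1.

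Igf1, the insulin-like growth factor, scored 112 in D0, 39.9 in D3, 22.6 (D6T+), 24.9 (D9T+), 26.8 (D12S-), 8.05 (D16S-), 9.25 in ESD3, 62.7 in MEF, 214 in D4, 14.6 in cKit+ and 9.69 in cKit-. Outside the 5 libraries that the rule kept free, every H3.3 library had a peak on it. Stc1, a secreted glycoprotein hormone, scored 83.0 in D0, 7.16 in D3, 6.28 in D6T+, 6.96 in MEF and 27.5 in D4. Nog, which binds and blocks bone morphogenetic proteins, scored 8.53 in D0, 19.4 in D3, 9.08 in D6T+, 6.23 in D9T+, 73.7 in MEF and 135 in D4. Members were 4.17% of the 48 TGF-beta and BMP genes bound in D0 and D3, of which 26 were bound in all 7 libraries.

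Ccl2, the chemokine that draws monocytes, went against the general order. It scored 188 in D0, 6.19 in D3, 68.7 (D6T+), 166 (D9T+), 182 (D12S-), 111 (D16S-), 7.03 in cKit+ and 18.0 in cKit-, with no peak in MEF or D4. All of its D0 peaks were also inside another gene's window, and D6T- peaks with scores of 88.7 and 40.8 reached into its own window with their midpoints outside, so its place among the members hangs on how peaks are given to genes. Il1rl1, the receptor of interleukin 33, scored 194 in D0, 12.8 in D3, 44.5 in D6T+, 13.4 in D9T+, 86.3 in MEF, 186 in D4 and 9.81 in cKit+. By gene symbol, 8 members were cytokines, chemokines, their receptors or their regulators, 8.89% of the 90 such genes bound in D0 and D3. A further 9 were G-protein-coupled receptors, 10.2% of 88, among them Ednra, the endothelin receptor, and Bdkrb1, a bradykinin receptor. Vdr, the vitamin D receptor, scored 40.2 in D0, 43.6 in D3, 8.38 in D6T+, 18.8 in D12S-, 13.9 in D16S-, 6.71 in ESD3, 8.46 in MEF and 139 in D4.

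Other members named by their scores or lists had varied roles. Plxna4, a semaphorin co-receptor of axons, scored 114 in D0, 54.7 in D3, 35.4 in D6T+, 6.01 in ESD3, 69.0 in MEF and 253 in D4. Muc6, a gastric mucin, scored 41.6 in D0, 70.1 in D3, 23.9 in MEF and 69.8 in D4. Cdh5, the cadherin of endothelial cells, scored 116 in D0, 14.3 in D3, 6.00 in MEF, 47.3 in D4 and 11.2 in cKit-. It was the sole member among 13 endothelial genes bound in D0 and D3. Of the endothelial markers 4 of 5 were bound in D0 with Kdr at 0, and 2 of 5 in D6T+. Actg2, a smooth muscle actin, was the sole member of 54 actin and contractile genes and scored 20.2 in D0, 6.00 in D3, 7.07 in D16S-, 16.2 in MEF, 288 in D4 and 4.25 in cKit+. No member came from the lists of Mapk cascade (70 bound in D0 and D3), AP-1 factor (16), pluripotency (17), epithelial (18), hematopoietic and macrophage (12) and neural and glial genes (10).

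By symbol family, 5 members were ion channel genes (4.90% of 102 bound in D0 and D3), 4 were solute carriers (2.04% of 196), 4 were cadherins, integrins or other adhesion genes (4.71% of 85) and 2 were guidance genes (3.70% of 54). Zinc-finger and homeobox genes gave 4 (1.33% of 301), ubiquitin ligase adaptors 3 (1.14% of 263), membrane traffic and Rab genes 1 (0.538% of 186), cAMP and calcium enzymes 1 (0.990% of 101), olfactory and taste receptors 1 of 4, and Fgf and Wnt genes none of 49. These shares are set beside the 1.89% of all genes bound in D0 and D3, and none was tested. Genes known by a clone or model name were 15.2% of the members, 16.5% of all protein-coding genes and 8.02% of the genes bound in D0 and D3.

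In the unsuccessful fractions, which the rule did not use, the members were bound less often than the genes bound in D0 and D3 as a whole, and among the 4 fractions most often in D6T+. In D6T+ 82 members had an H3.3 peak (38.9%, interval 32.2% to 45.8%). The share was 50.7% of all protein-coding genes and 87.7% of the genes bound in D0 and D3. In D9T+ 47 members were bound (22.3%, 16.8% to 28.5%), against 52.3% and 87.7%. In D12S- 66 were bound (31.3%, 25.1% to 38.0%), against 60.3% and 93.5%. In D16S- 45 were bound (21.3%, 16.0% to 27.5%), against 54.2% and 88.0%. The low shares have to be read beside the low scores in D0 and D3 given above. When every library was held to its top-scoring 34062 peaks, 61.1% of the then 193 members were bound in D6T+ against 40.3% of all genes, so that the order of members and all genes turned around, while the share of genes bound in D0 and D3 stayed higher, at 88.8%. With H3.3 at least 4 fold over input, members were also above all genes in D6T+, at 49.5% against 44.5%. In the other unsuccessful fractions members stayed below all genes in both settings.

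The 147 genes that were bound in D0, D3 and D6T- and in no later library of the successful route were set beside the members. They were longer, with a median of 35.2 kb against 18.6 kb, and had a higher median D3 score, 13.4 against 8.90, with D0 medians of 18.5 and 20.2. The part of this in the shares was not tested. They had peaks in D6T+ in 67.3% (59.1% to 74.8%), and in the 3 other unsuccessful fractions in 53.1%, 64.6% and 41.5%, each higher than among the members. These genes were required to be bound in D6T-, where the members were required to be free. The shares are thus not independent of that selection, and the comparison is a description with no test. Members had no peak in any of the 4 fractions in 76 cases (36%), in 1 fraction in 69, in 2 in 37, in 3 in 19 and in all 4 in 10. Of all protein-coding genes 33.3% had none in any of the 4, close to the members' share, and 40.3% had all 4. Of the genes last bound in D6T- 9.52% had none and 20.4% had all 4. Of the members 30 were bound in D6T+ alone of the 4, 21 in D12S- alone, and 9 each in D9T+ and D16S- alone. A further 37 had a peak in D12S- or D16S- but in neither T+ fraction.

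The 10 members bound in all 4 unsuccessful fractions include Ccl2, Col6a1, Igf1, Ifi47, Mr1, Ptpn5, Atp10b and 4833403I15Rik. Ifi47, an interferon-induced GTPase, scored 61.9 in D0, 14.5 in D3, 6.98 (D6T+), 20.8 (D9T+), 21.2 (D12S-), 143 (D16S-), 12.4 in MEF, 146 in D4, 14.9 in cKit+ and 10.2 in cKit-. Its D16S- score was above its D0 score, though its D0 peaks were all shared with another gene's window. Mr1, which presents vitamin B metabolites to T cells, scored 28.6 in D0, 13.9 in D3, 16.1 (D6T+), 21.0 (D9T+), 22.0 (D12S-), 25.4 (D16S-), 26.9 in MEF, 53.4 in D4 and 12.5 in cKit+. Mr1 thus kept scores of 16.1 to 25.4 in the 4 fractions, against 28.6 in D0. Ptpn5, a tyrosine phosphatase of neurons, scored 104 in D0, 12.8 in D3, 31.6 (D6T+), 15.8 (D9T+), 6.22 (D12S-), 6.34 (D16S-), 43.3 in D4 and 8.07 in cKit+. Atp10b, a lipid flippase, scored 51.7 in D0, 5.81 in D3, 41.6 (D6T+), 6.68 (D9T+), 6.59 (D12S-), 9.02 (D16S-), 26.0 in MEF, 85.7 in D4, 5.67 in cKit+ and 13.9 in cKit-.

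Where members were bound in an unsuccessful fraction, it was mostly at the place bound in D0. A D6T+ peak overlapped a D0 peak for 62 of 82 members (75.6%, 64.9% to 84.4%), a D9T+ peak for 37 of 47 (78.7%, 64.3% to 89.3%), a D12S- peak for 43 of 66 (65.2%, 52.4% to 76.5%) and a D16S- peak for 29 of 45 (64.4%, 48.8% to 78.1%). For all genes bound in D0 and D3 these shares were 87.9%, 86.1%, 88.7% and 85.0%. The median score of the bound members was 11.2 (D6T+), 7.57 (D9T+), 7.87 (D12S-) and 9.02 (D16S-). The medians over all genes bound in D0, D3 and the same fraction were 44.8, 48.6, 86.2 and 51.5, and the lowest scores of any peak 5.59, 5.12, 4.94 and 5.37.

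**Figure D3:**
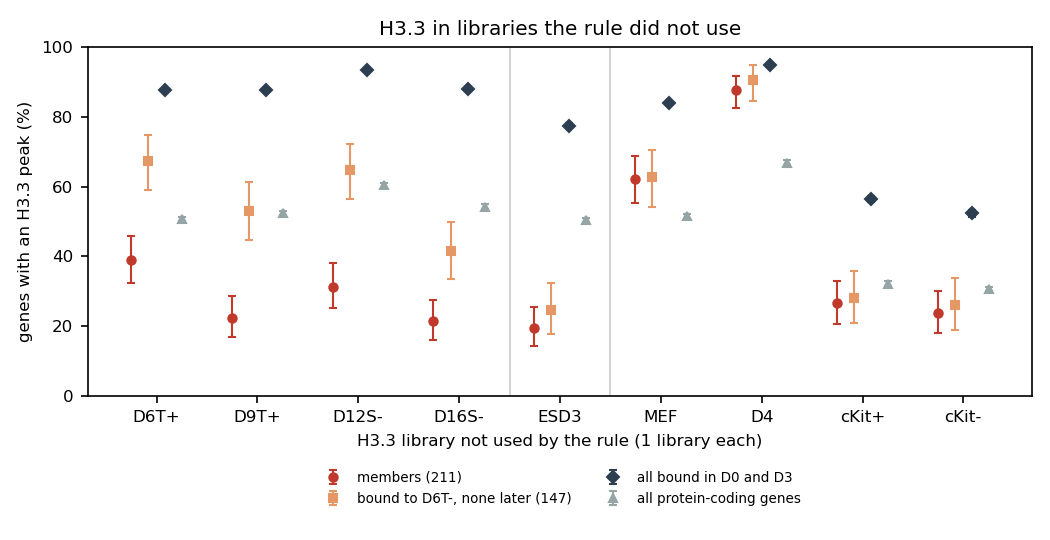
Share of genes with an H3.3 peak in percent (vertical axis, points with exact 95% binomial intervals) in the 9 H3.3 libraries that the rule did not use (horizontal axis, 1 library each), for the 211 members, the 147 genes bound up to D6T- and in no later library, all 11146 genes bound in D0 and D3, and all protein-coding genes. Of the groups shown, members lie lowest in the 4 unsuccessful fractions, from 21.3% to 38.9%, and also in ESD3 (19.4%), cKit+ (26.5%) and cKit- (23.7%). In D4 the members come close to all genes bound in D0 and D3, at 87.7% against 94.8%.

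In the ESD3 stem cells, 41 members were bound (19.4%, 14.3% to 25.4%), against 50.5% of all genes and 77.4% of those bound in D0 and D3. The members had been required to be free in iPSCs, so a share in another pluripotent line is not independent of the rule. Only 11 of these 41 had an ESD3 peak over a D0 peak (26.8%, 14.2% to 42.9%), against 71.0% of the genes bound in D0 and D3. The highest ESD3 scores were those of Trpc7, a cation channel (37.2, against 25.6 in D0 and 6.00 in D3), Galntl1, a glycosyltransferase (33.7, against 23.2 and 15.5), and Kcnab2, a potassium channel subunit (27.3, against 17.4 and 25). In these 3 genes the stem cell line had more H3.3 than D0 while iPSCs had no peak.

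In the second experiment, 131 members were bound in its MEF library (62.1%, 55.2% to 68.7%), against 51.5% of all genes and 84.0% of those bound in D0 and D3. Thus 80 of the 211 had no H3.3 peak in the other library of unconverted fibroblasts. Of the 131, 65 were also bound in D6T+ (49.6%), and of the 80 it was 17 (21.2%). On day 4 after SLBR induction 185 members were bound (87.7%, 82.5% to 91.8%), with a median score of 61.5, against 66.8% of all genes and 94.8% of those bound in D0 and D3. D4 had the most peaks of the 16 libraries, 108179, and 37.2% of its tags in peaks. In cKit+ cells 56 members were bound (26.5%, 20.7% to 33%) and in cKit- cells 50 (23.7%, 18.1% to 30.0%), against 32.1% and 30.5% of all genes and 56.4% and 52.3% of the genes bound in D0 and D3.

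With the peak lists as deposited, H3K4me3, which the rule did not use, was at the start sites of members in D0 about as often as at those of all genes. It was there less often than at those of genes bound in D0 and D3. The order against all genes depended on the setting. It was 75.1% against 63.0% with equal peak numbers per library and 83.2% against 66.7% with H3.3 at least 4 fold over input. With 5 kb flanks it was 45.5% against 66.7%. Where the mark was present in D3, it mostly was in D6T- too. In D0 130 members had an H3K4me3 peak within 1 kb of a start site (61.6%, 54.7% to 68.2%), against 66.7% of all genes and 93.9% of those bound in D0 and D3. The D3 count was 118 (55.9%, background 65.3%), and the D6T- count was also 118 (55.9%, background 66.2%). The D9T- count was 111 (52.6%, background 65.2%), that of D12S+ 97 (46.0%, background 63.0%), that of D16S+ 53 (25.1%, background 46.6%) and that of iPSCs 101 (47.9%, background 65.0%), the background being the share of all protein-coding genes. From D3 to D6T-, the step at which H3.3 was lost by the rule, 113 of 118 kept the mark (95.8%, 90.4% to 98.6%). The share was 99.5% of the genes bound in D0 and D3 and 98.7% of all genes with it in D3, both just above that interval. From D0 to iPSCs 98 of 130 kept it (75.4%, 67.1% to 82.5%), against 96.6%, and against 94.2% of all genes with it in D0. The mark was in none of the 7 libraries for 76 members (36%, 29.5% to 42.9%), against 29.4% of all genes and 4.45% of the genes bound in D0 and D3. The D16S+ library had the fewest H3K4me3 peaks, 19633, and its dip was seen in all genes.

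Members that had lost H3K4me3 by the iPSC stage numbered 32 (15.2%, 10.6% to 20.7%, against 3.17% of the genes bound in D0 and D3). Those with the highest D0 scores were Stc1 (256 in D0, 118 in D6T-), Adamts12 (180 and 136), Col6a1 (178 and 69.9), Lsp1 (146 and no peak), Il1rl1 (118 and no peak) and Lrrc17 (117 and 72.4), all without a peak in iPSCs. Of these 6, 4 still had the mark in D6T-, where no H3.3 peak was assigned to them. Col6a1 is among the 4, though the D6T- H3.3 peak described above covered its first 224 bp with the midpoint outside the window. Thy1 had start site scores of 192 in D0, 56.6 in D3, 19.5 in D6T-, 22.0 in D12S+ and 23.0 in iPSCs, and no peak in D9T- and D16S+. The mark was in all 7 libraries for 47 members (22.3%, against 70.1%). Those with the highest iPSC scores were Gm5468 (390 in D0, 112 in iPSCs), Socs1, a brake on cytokine signals (381 and 84.2), Stk36, a kinase (144 and 64.0), Galntl1 (151 and 63.0), Adcy8, an adenylyl cyclase (241 and 61.3), and BC106179 (326 and 61.2). Socs1 and BC106179 were not clear of later H3.3. Peaks with midpoints outside reached into the window of Socs1 in D6T-, D9T-, D12S+, D16S+ and iPSCs, and into the gene by 112 bp in D9T- and 195 bp in D12S+. Such peaks also reached into the window of BC106179 in D6T-, D9T-, D16S+ and iPSCs. Where the mark was called, the median start site score of members was 94.0 in D0 and 30.8 in iPSCs. That of the genes bound in D0 and D3 was 201 and 71.6, so lower iPSC values were common to both groups. The D0 library of this mark had 30.4% of its tags in peaks and the iPSC library 12.7%, and the part of this in the scores was not tested.

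With the peak lists as deposited, H3K36me3 was present on a smaller share of members than of all genes, and most of the members that had it in D0 had no peak in iPSCs. The D0 order was not stable. With equal peak numbers per library it was 31.1% of members against 28.3% of all genes, and with H3.3 at least 4 fold over input 50.7% against 47.2%. In iPSCs members stayed below, at 9.33% against 22.8% and 20.0% against 34.4%. In D0 67 members had a peak in the gene (31.8%, 25.5% to 38.5%), against 47.2% of all genes and 77.5% of those bound in D0 and D3. The D3 count was 42 (19.9%, background 43.5%) and the D6T- count 20 (9.48%, background 37.8%). Further on, D9T- had 31 (14.7%, background 47.0%), D12S+ 5 (2.37%, background 23.3%), D16S+ 12 (5.69%, background 25.5%) and iPSCs 18 (8.53%, background 34.4%). From D3 to D6T- 15 of 42 kept it (35.7%, 21.6% to 52.0%), against 84.1% of the genes bound in D0 and D3 and 80.7% of all genes with it in D3. From D0 to iPSCs 12 of 67 kept it (17.9%, 9.61% to 29.2%), against 69.9% and 64.4%. Where the mark was called, its median summed score was lower on members than on the genes bound in D0 and D3. The medians were 55.8 against 194 in D0 and 22.1 against 88.9 in D3. The D6T- library of this mark had 7.50% of its tags in peaks and the D3 library 14.1%. The part of the scores and of the libraries in these shares was not tested. The 147 genes last bound in D6T- kept it from D3 to D6T- in 46.9% (34.3% to 59.8%) and from D0 to iPSCs in 10.0% (4.12% to 19.5%), so their intervals overlapped those of the members. The D12S+ library held 12322 peaks, the fewest of this mark, against 57288 in D0.

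The 4 members with most of their length under H3K36me3 in D0 were 1700019G06Rik, of 0.468 kb and inside 1 peak, Col6a1, Taf1 and Serpinf1. Col6a1 was covered over 87.0% of its length in D0, 38.8% in D3, 22.8% in D6T-, 85.8% in D9T- and none in D12S+, D16S+ and iPSCs. Serpinf1 was covered over 74.0% in D0, 21.1% in D3 and none in the 5 later libraries. Adamts5 was covered over 72.1% in D0, 78.8% in D3 and none in the 5 later libraries. Taf1, the largest subunit of the general transcription factor TFIID, was covered over 84.9% in D0, 30.1% in D3, 9.52% in D6T-, 83.2% in D9T-, none in D12S+, 2.41% in D16S+ and 0.724% in iPSCs, with H3.3 scores of just 6.86 in D0 and 8.52 in D3. In each of these genes a smaller part was covered in D6T- than in D3, but in D9T- Col6a1 and Taf1 were covered nearly as far as in D0. The D9T- library of this mark had 42.4% of its tags in peaks, the D6T- library 7.50% and the D0 library 31.3%, and the part of this in the covers was not tested.

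**Figure D4:**
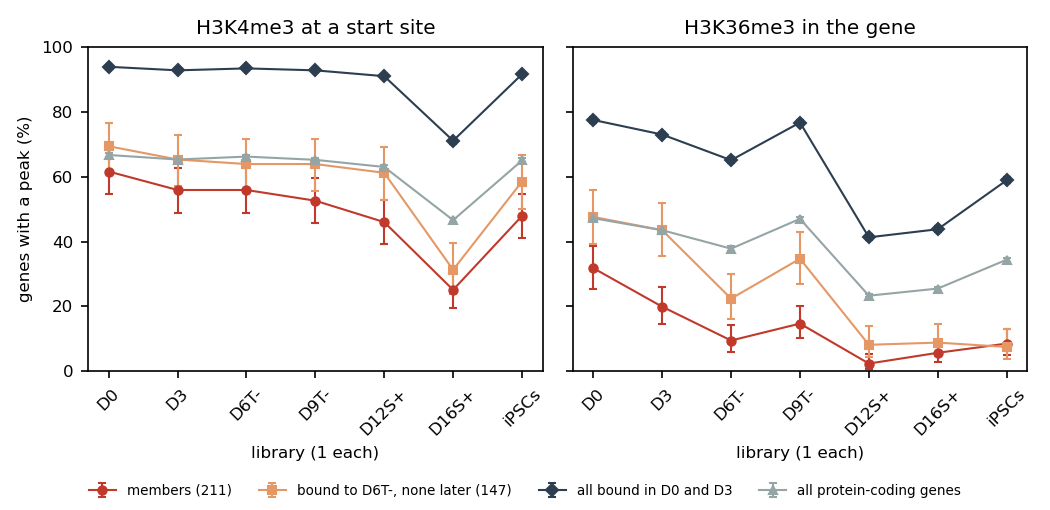
Share of genes with an H3K4me3 peak within 1 kb of a start site (left) and with an H3K36me3 peak in the gene or its 1 kb flanks (right), in percent with exact 95% binomial intervals, in the 7 libraries from D0 to iPSCs (horizontal axis, 1 library each), for the 211 members, the 147 genes bound up to D6T- and in no later library, all 11146 genes bound in D0 and D3, and all protein-coding genes. H3K4me3 on members stays at 55.9% from D3 to D6T- while H3K36me3 goes from 19.9% to 9.48%; all 4 groups dip in D16S+ for H3K4me3. H3K36me3 is low in D12S+ in all 4, and in the 147 genes it stays there, at 8.16%, 8.84% and 7.48% from D12S+ to iPSCs.

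The marks also sorted the members. In D0 59 had both marks (28.0%), 71 H3K4me3 alone (33.6%), 8 H3K36me3 alone (3.79%) and 73 neither (34.6%, 28.2% to 41.4%), against 31.0% with neither among all genes, which is inside the interval, and 4.04% among the genes bound in D0 and D3. Of the 130 members with H3K4me3 in D0, 45.4% were bound by H3.3 in D6T+ (36.6% to 54.3%) and 70.0% in MEF (61.3% to 77.7%), and of the 81 without it 28.4% (18.9% to 39.5%) and 49.4% (38.1% to 60.7%). Among all genes bound in D0 and D3 the same split gave 88.8% and 70.8% in D6T+, and 85.0% and 68.1% in MEF, so genes without the mark were bound less often there too. In the 147 genes last bound in D6T- the split gave 69.6% and 62.2% in D6T+, and 62.7% and 62.2% in MEF, and in D9T+ 51.0% with the mark and 57.8% without it.

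Of 6 genes singled out from the study's account, Col6a1 was a member and the others were not. Adcy7 was bound in D0, D3, D6T- and D9T- with scores of 256, 61.1, 19.7 and 15.4. Arhgap24 was bound up to D6T- (19.4) and again in iPSCs (5.35), and Mdfic up to D9T- (125) and again in iPSCs (5.22). Flnc had scores of 10.8 in D6T-, 22.5 in D12S+ and 17.2 in iPSCs, and Twist1, with 6.12 in D0 and 8.65 in D9T-, was not bound in D3.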

How the data were processed

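ChIP-Seq peak lists of 30 libraries (16 of H3.3, 7 of H3K4me3, 7 of H3K36me3) were used, out of 46 samples, of which 16 are inputs. The authors aligned unique reads to mm9 with STAR and called peaks on each library against its input with HOMER, whose versions are not given in the sources used here. The deposited signal is the normalized tag count of each peak, scaled to 10 M (mega) tags and not divided by length. The deposited fold over input was at least 2 for H3.3 and at least 4 for the marks, and the deposited p-value against input was at most 1.00e-04.

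The 22380 GENCODE vM1 protein-coding records were merged by symbol into 22238 genes. A peak was given to each gene whose body or 1 kb flanks held its midpoint, and H3K4me3 to start sites within 1 kb. Shares have exact Clopper-Pearson intervals (scipy 1.17.1, Python 3.11.15). With 1 library per group there was no test and no p-value. The assignment was tested on simulated peaks. The members, gene lists and comparisons were chosen with earlier results of these data known. The genes named were the highest by H3.3 score, by unsuccessful fractions bound, by H3K4me3 lost or kept, by H3K36me3 cover and by ESD3 score, together with members of the gene lists, genes at the edge of the rule and genes from the study. Alternatives varied the peaks used, the assignment and the rule, and 2 were added after seeing the data (a D0 peak in no other gene's window, and overlapping D0 and D3 peaks). Some items are not reported here.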

Additional observations from a re-analysis of the deposited data

How the results depend on the processing

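Of 126 alternative values 91 counted as the same as the main value and 35 as moved. A share counted as moved when it left the interval of the main value. The numbers of members, which have no interval, were judged by a fixed fold limit. In all 112 member shares the members stayed below the genes bound in the libraries required. Which genes are members was less stable. In what follows, the share of all genes under the same setting is in parentheses. With an equal number of peaks per library (34062) there were 193 members, 32 of them shared with the 211. Of the 193, 61.1% had H3.3 in D6T+ (40.3%), 33.2% in D9T+ (41.2%) and 70.5% in MEF (42.7%). H3K4me3 was at 75.1% in D0 (63.0%) and 60.1% in iPSCs (61.2%), and H3K36me3 at 31.1% in D0 (28.3%). At a minimum enrichment over input of 4 there were 416 members, 132 of them shared; H3.3 was at 49.5% (D6T+), 36.3% (D9T+), 38.2% (D12S-), 35.3% (D16S-), 29.3% (ESD3) and 3.37% (MEF, against 5.71% of all genes), H3K4me3 at 83.2% in D0 and 70.2% in iPSCs, and H3K36me3 at 50.7% and 20.0%. Without flanks there were 234 members, with H3K4me3 at 70.9% in D0 (66.7%) and 58.1% in iPSCs (65.0%) and H3K36me3 at 40.6% in D0 (44.9%). With 5 kb flanks there were 244, with H3K4me3 at 45.5% in D0 (66.7%) and 35.7% in iPSCs (65.0%). By nearest start site there were 224, with H3.3 in D6T+ at 48.2% (50.3%) and H3K36me3 in iPSCs at 13.4% (35.3%). For the settings that follow, the H3.3 and mark shares of all genes are those of the main setting. Without D3 in the rule there were 685 members, with H3.3 at 23.2% (D6T+), 14.9% (D9T+), 21.0% (D12S-), 15.6% (D16S-) and 46.9% (MEF), H3K4me3 at 52.8% in D0 and 39.6% in iPSCs, and H3K36me3 at 23.1% in D0. With only members whose D0 and D3 peaks overlap, added after seeing the data, 139 remained and H3.3 in MEF was at 69.8%. In 300 bp windows 11.5% of member peaks held the AP-1 heptamer, against 7.77% of all genic D0 peaks. The causes were not tested. Leaving out D9T- gave 260 members and leaving out D16S+ 228. No paired analysis was possible because each group is 1 library. Depth and enrichment limit every absence of a peak.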

Other observations

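Among the members were 21 genes best known from leukocytes, among them Ccr3, Cd96, Ctla4, Cx3cr1, Dntt and Fcgr4. All 21 were picked out after the values were seen and not from a fixed list, so their values are a description with no test. Such genes were not counted among all genes or among those bound in D0 and D3, so whether 21 is many cannot be said. The fixed hematopoietic and macrophage list, with 12 genes bound in D0 and D3, held no member. H3K4me3 was at a start site in D0 in 4 of the 21 (19.0%, exact 95% interval 5.45% to 41.9%), against 126 of the 190 other members (66.3%, 59.1% to 73.0%). H3K36me3 was on 2 of the 21 in D0 (9.52%, 1.17% to 30.4%), against 65 of the others (34.2%, 27.5% to 41.4%). The D0 shares of all protein-coding genes were 66.7% for H3K4me3 and 47.2% for H3K36me3. The median summed H3.3 score of the 21 in D0 was 20.8, and that of the others 20.1. H3.3 was called on 10 of the 21 in D6T+ (47.6%) and on 2 in D9T+ (9.52%), and on 37.9% and 23.7% of the others. In the second experiment 14 were bound in MEF (66.7%), 18 in D4 (85.7%), 10 in cKit+ cells (47.6%, 25.7% to 70.2%) and 9 in cKit- cells (42.9%, 21.8% to 66.0%). The other members were bound in 61.6%, 87.9%, 24.2% and 21.6%. Of all protein-coding genes 50.7% were bound in D6T+, 52.3% in D9T+, 51.5% in MEF, 66.8% in D4, 32.1% in cKit+ and 30.5% in cKit- cells. The cKit+ and cKit- values lie inside the intervals of the 21.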
